A study of Homo sapiens with 16 samples.

Results

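SGK1 and the genes around it in aldosterone-regulated sodium transport were followed in the human embryonic kidney line HEK293, as single-gene probe sets of an expression array. The 9 genes were SGK1, SGK3, NEDD4L, NEDD4, ATP1B1, SCNN1A, WNK1, STK39 and SLC9A2, chosen by symbol from the array's annotation. Of the 18132 genes with a probe set that names 1 gene, these made up 8, with 30 such probe sets, and all 8 were among the 12495 genes tested after a filter on dim probe sets. SGK3 had no value, because its 3 probe sets are also annotated to the read-through gene C8orf44-SGK3.

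All cells had been given an expression plasmid for MR, the mineralocorticoid receptor that NR3C2 encodes, with 500 ng per well for 24 h, before a treatment of 4 h. The 4 groups received vehicle, 100 nM DOC (deoxycorticosterone acetate, a mineralocorticoid), 10 nM PMA (a phorbol ester and activator of protein kinase C), or DOC plus PMA. Each group held 4 arrays, which the labels call biological replicates. Cells without the plasmid were not analysed here, so responses through the transfected receptor and through the cells' own steroid receptors cannot be told apart.

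As background, aldosterone raises sodium reabsorption in the distal nephron through MR. SGK1 is an early MR target there, a kinase that phosphorylates the ubiquitin ligase NEDD4L and so keeps it from removing the epithelial sodium channel ENaC from the cell surface. Downstream stand ENaC itself, with SCNN1A as its alpha subunit, and the sodium pump, of which ATP1B1 is a beta subunit. The kinases WNK1 and STK39 (SPAK) control cation-chloride cotransporters, and SLC9A2 (NHE2) exchanges sodium for protons.

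The values are log2 RMA signals, and differences are on the log2 scale, given ± standard error (SE) from a limma fit over all 16 arrays. A gene was called where its p, adjusted by Benjamini-Hochberg over the 12495 genes, was under 0.05. The array medians were 4.91 to 4.96, and a signal below them is called dim. Of the HEK293 marker list, 6 of 7 genes lay above the median in all 16 arrays, and PAX2 in 3. Of 9 distal nephron markers 6 lay below it in all 16, namely SCNN1B and SCNN1G, AQP2, SLC12A3, HSD11B2 and CALB1, so these 6 were dim here. Of the other 3, GATA3 lay above the median in 16 arrays, TFCP2L1 in 15 and AQP3 in 8, the last with means of 4.75 in vehicle and 6.67 with PMA. None of the 5 leukocyte, 5 endothelial and 5 fibroblast markers lay above the median in all 16. The leukocyte markers CORO1A and CD68 lay above it in 7 and 3 arrays and the endothelial marker TIE1 in 3. CORO1A had means of 4.61 in vehicle and 5.01 with PMA. The mean level of the leukocyte list was 3.55 to 3.84 in vehicle and 3.83 to 3.90 with PMA, the endothelial 3.82 to 4.00 and 3.99 to 4.13, and the fibroblast 3.23 to 3.43 and 3.25 to 3.44. Of the other 2 lists, HEK293 markers were at 9.13 to 9.39 and 9.70 to 9.84, and distal nephron markers at 4.20 to 4.22 and 4.23 to 4.46. The part of these shifts in the results with PMA was not tested. In 3 arrays, namely DOC replicate 1 and replicate 2 of both groups with PMA, the deviations from the group means went together, with correlations of 0.42 to 0.55. Without these 3 arrays, SGK1 was higher than in vehicle by 1.45 with PMA and 0.87 with DOC, and DOC plus PMA exceeded PMA by 0.95.

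The sequences before the start sites are shown first for 3 of the members that rose, SGK1, SLC9A2 and NEDD4L, since the agents are known to act through DNA-binding factors. The RefSeq table used here gave 15 start sites for 7 of the members on GRCh38.p14, 3 of them for SGK1 and 5 for NEDD4L. Each line gives the 250 bases before a start, on the gene's own strand, and the second SGK1 line runs on through the first 20 transcribed bases. Of the 5 NEDD4L windows, the fourth was picked because it alone held a match to a loose AP-1 pattern, with any base in the middle. Capitals mark a match to a searched motif, on either strand.
SGK1 chr6:134318113-134318362, strand minus: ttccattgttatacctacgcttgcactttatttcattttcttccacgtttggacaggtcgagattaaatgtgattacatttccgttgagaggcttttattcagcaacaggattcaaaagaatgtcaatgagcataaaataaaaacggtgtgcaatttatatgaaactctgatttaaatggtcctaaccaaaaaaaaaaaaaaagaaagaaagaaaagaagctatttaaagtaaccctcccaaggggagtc
SGK1 chr6:134177842-134178111, strand minus: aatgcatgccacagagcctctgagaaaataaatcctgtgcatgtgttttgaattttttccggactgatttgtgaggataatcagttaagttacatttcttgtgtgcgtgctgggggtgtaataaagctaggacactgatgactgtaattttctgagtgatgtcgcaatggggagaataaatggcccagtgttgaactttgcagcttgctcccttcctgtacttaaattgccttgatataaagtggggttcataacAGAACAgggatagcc
SGK1 chr6:134174867-134175116, strand minus: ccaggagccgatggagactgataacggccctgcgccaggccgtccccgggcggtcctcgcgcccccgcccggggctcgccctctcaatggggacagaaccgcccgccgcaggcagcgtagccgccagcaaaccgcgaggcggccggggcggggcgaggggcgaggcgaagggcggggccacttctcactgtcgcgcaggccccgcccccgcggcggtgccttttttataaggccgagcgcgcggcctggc
SLC9A2 chr2:102619303-102619552, strand plus: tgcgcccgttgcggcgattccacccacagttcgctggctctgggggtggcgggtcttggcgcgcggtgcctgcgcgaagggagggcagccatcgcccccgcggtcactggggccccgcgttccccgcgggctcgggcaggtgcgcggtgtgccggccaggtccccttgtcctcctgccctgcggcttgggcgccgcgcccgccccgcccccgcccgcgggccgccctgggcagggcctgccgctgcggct
NEDD4L chr18:58221321-58221570, strand plus: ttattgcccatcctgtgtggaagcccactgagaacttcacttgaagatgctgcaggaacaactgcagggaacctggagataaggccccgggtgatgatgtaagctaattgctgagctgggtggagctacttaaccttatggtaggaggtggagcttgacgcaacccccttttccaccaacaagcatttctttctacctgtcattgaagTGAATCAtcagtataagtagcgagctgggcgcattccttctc

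The 3 SGK1 windows differed in base composition, with 38.0%, 43.0% and 73.3% GC in the 300 bases from 250 before to 50 after the start, against a median of 58.7% over 35116 such windows. The SLC9A2 window had 80.0% GC. The palindromic steroid receptor element, AGAACA and TGTTCT with 3 bases of any kind between them, was in 0 of the 15 windows and in 0.00285% of all windows. The core AGAACA alone was in 5 of 15, against 14.8% of all, and in SGK1 it began at transcribed base 6 of the second start (capitals above). The other 4 were the first NEDD4L start, 2 NEDD4 starts whose windows overlap, and STK39. The loose AP-1 pattern TGANTCA, with any base in the middle, was in 3 of 15, against 7.71% of all. The fourth NEDD4L window held it as TGAATCA, 42 bases before the start. The other 2 were the overlapping NEDD4 windows, each with TGATTCA and TGAGTCA. The cAMP response element TGACGTCA was in 0 of 15 and in 1.85% of all. A match is a run of letters and not a measured binding site.

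SGK1 rose with either agent and was highest with both. Its probe set 11737750_s_at read 6.51, 6.54, 6.57 and 6.42 in the vehicle arrays, in the order of replicates 1 to 4. With DOC it read 7.60, 7.20, 7.56 and 7.39, and with PMA 7.99, 7.88, 7.88 and 8.01. With DOC plus PMA it read 8.87, 8.86, 8.83 and 9.03. The groups stood in the order vehicle, DOC, PMA, DOC plus PMA, and no array of one group reached the range of the next. Non-overlap in either direction was found in 2.33% of all tested genes for DOC against vehicle, 37.8% for PMA against DOC and 2.73% for DOC plus PMA against PMA.

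**Figure D1:**
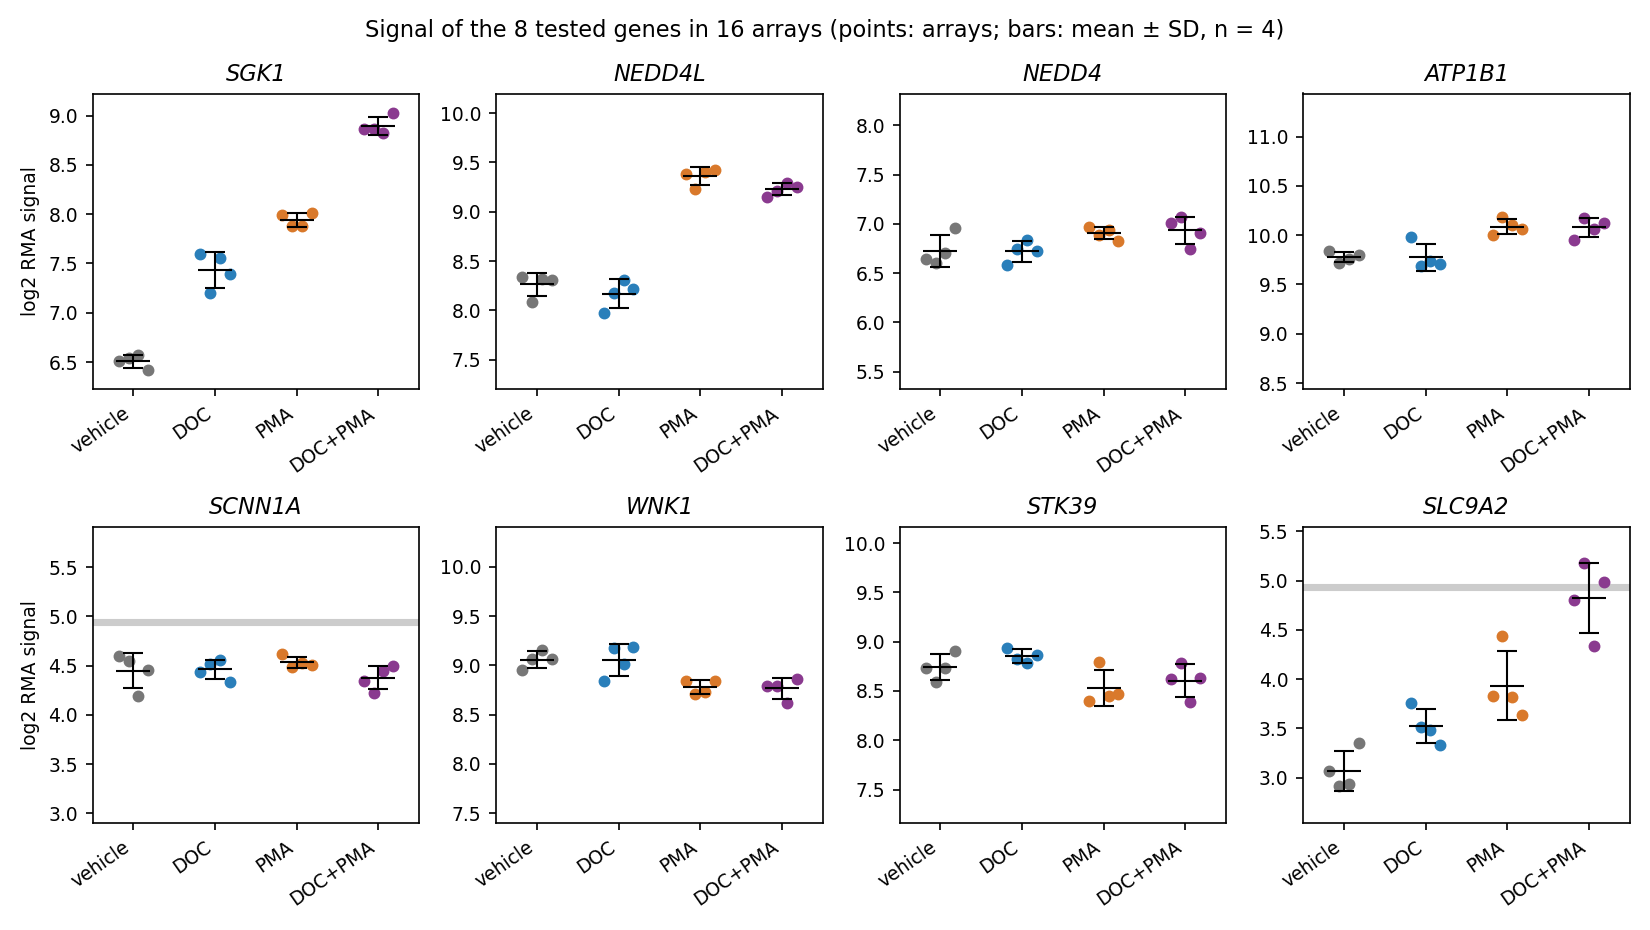
Log2 RMA signal of the 8 tested genes in each of the 16 arrays, by treatment group; points are arrays, black bars the mean ± SD of 4, and the grey band the array medians (4.91 to 4.96). The 4 SGK1 groups do not overlap, NEDD4L separates the groups with PMA from those without, and SLC9A2 lies below the band in 14 of 16 arrays.

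The mean SGK1 signal was 6.51 ± 0.06 (SD, n = 4) in vehicle, 7.44 ± 0.18 with DOC, 7.94 ± 0.07 with PMA and 8.90 ± 0.09 with both. PMA raised it by 1.43 ± 0.08, or 2.69-fold (adjusted p = 1.52e-10, limma). DOC raised it by 0.93 ± 0.08, or 1.90-fold (adjusted p = 5.61e-06), and both together by 2.39 ± 0.08, or 5.23-fold (adjusted p = 8.02e-14). By size of rise it was the 4th of 12495 genes for DOC and the 149th for PMA.

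The effect of DOC on SGK1 was close to the same size with and without PMA on the log2 scale. DOC plus PMA exceeded PMA by 0.96 ± 0.08, or 1.94-fold (adjusted p = 1.04e-06), beside the 1.90-fold of DOC alone. The sum of the separate changes was 2.36 and the change with both was 2.39. Their difference, the interaction, was 0.03 ± 0.11, with a 95% interval of −0.21 to 0.27 (adjusted p = 1.00), so departures from additivity within this interval were not told apart from 0. Over all genes, 0.088% were called for the interaction. Averaged over both levels of PMA, DOC raised SGK1 by 0.94 ± 0.06 (adjusted p = 9.62e-09).

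All 4 SGK1 probe sets gave this pattern. Their rise ran from 1.02 to 1.60 with PMA, from 0.77 to 1.03 with DOC, and from 0.90 to 0.97 for DOC plus PMA against PMA. The lowest rises with PMA and with DOC were in 11737749_a_at, which was dim in 8 of 16 arrays, with a vehicle mean of 4.03. Each of the 4 passed in all of these comparisons, where 40.9%, 0.0719% and 0.229% of the 30613 kept probe sets did.

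Among the 8 tested members, 4 were higher with PMA (SGK1, NEDD4L, ATP1B1 and SLC9A2) and 1 was lower (WNK1), and these 5 did not overlap with vehicle. Over all genes 47.0% were called in this comparison, 17.7% higher and 29.3% lower, and 42.2% did not overlap. The member count includes SLC9A2, which passed the filter on dim probe sets only through 4 DOC plus PMA arrays and 1 PMA array, so it had to be higher there. With every array shifted to a common median, the calls over all genes were 3141 higher and 2773 lower, in place of 2206 and 3663 on the deposited values, while the directions and calls of these 5 members were the same. This shift moved the median PMA difference over all genes from −0.04 to 0.04, more than array medians of 4.91 to 4.96 allow. The median made common was thus not the array median that defines dim signals. Which probe sets it covers is not given here. With both agents against vehicle the same 4 members were higher and the same 1 lower. There 43.8% of all genes were called, 17.5% higher and 26.3% lower. For DOC alone 1 member was called, SGK1, where 0.12% of all genes were. For DOC plus PMA against PMA 2 were called, SGK1 and SLC9A2, both higher, where 0.384% were, 0.36% higher, and SGK1 alone did not overlap. The filter favoured SLC9A2 in this comparison too, so its call is not counted as support here. No member was called by limma for the interaction, and 0 of 8 had an unadjusted p under 0.05 there. The lowest unadjusted p of a member, 0.0889 for SLC9A2, ranked 696th of 12495 genes. The members' interaction values ran from −0.17 for SCNN1A to 0.44 for SLC9A2.

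**Figure D2:**
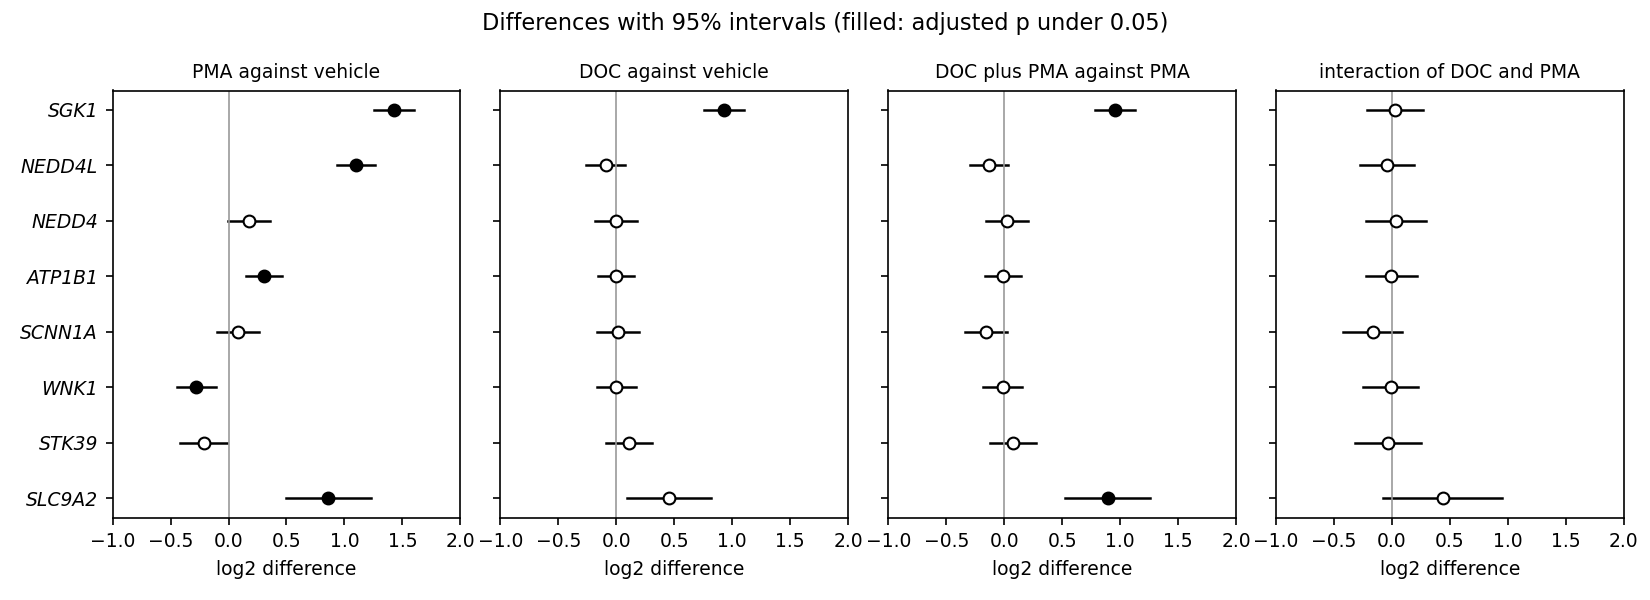
Log2 differences of the 8 tested genes in 4 panels, PMA and DOC each against vehicle, the combination against PMA, and the interaction of DOC and PMA; lines are 95% intervals and filled points have an adjusted p under 0.05. Filled points stand at SGK1 in the first 3 panels (1.43, 0.93 and 0.96). For PMA they also stand at NEDD4L (1.10), ATP1B1 (0.31), WNK1 (−0.28) and SLC9A2 (0.86). For DOC plus PMA against PMA SLC9A2 (0.89) is filled too, and the interaction panel has none. The filter on dim probe sets favoured both SLC9A2 points.

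NEDD4L, the ubiquitin ligase that SGK1 phosphorylates, rose with PMA and not with DOC. Its probe set 11722424_a_at read 8.34, 8.08, 8.31 and 8.31 in vehicle and 7.97, 8.18, 8.31 and 8.22 with DOC. With PMA it read 9.38, 9.23, 9.41 and 9.43, and with both 9.15, 9.21, 9.29 and 9.26. The 8 arrays with PMA all lay above the 8 without it, and the groups overlapped within each set of 8. The share of all genes that split 8 from 8 was not computed, while 42.2% did not overlap for PMA against vehicle. PMA raised NEDD4L by 1.10 ± 0.08, or 2.14-fold (adjusted p = 3.56e-09). DOC differed from vehicle by −0.09, with a 95% interval of −0.26 to 0.07, and DOC plus PMA from PMA by −0.13 (−0.30 to 0.03).

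The 7 NEDD4L probe sets did not move as 1. With PMA 5 of them rose, by 0.87 to 1.22. The other 2 were at −0.01 (11722423_a_at, adjusted p = 0.974) and −0.30 (11722425_s_at, adjusted p = 0.0797). Which transcripts each probe set reads is not given in the sources used here, so the rise holds for these 5 probe sets and not for every NEDD4L transcript.

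NEDD4, the parent member of this ligase family, was at 6.73 ± 0.16 in vehicle, 6.72 ± 0.11 with DOC, 6.90 ± 0.06 with PMA and 6.93 ± 0.14 with both, and neighbours in this order overlapped. Its difference with PMA was 0.18 ± 0.09 (adjusted p = 0.102). It passed with cyclic loess scaling (0.27, adjusted p = 0.0144) or a common median (0.26, adjusted p = 0.0182). It also passed with the mean of its probe sets (0.22, 0.0451), with array weights (0.20, 0.0329) or without vehicle replicate 4 (0.26, 0.0171). Its second kept probe set gave 0.26 ± 0.12. Another, dim in all 16 arrays and not kept, differed by 0.62 ± 0.12 with PMA.

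**Figure D3:**
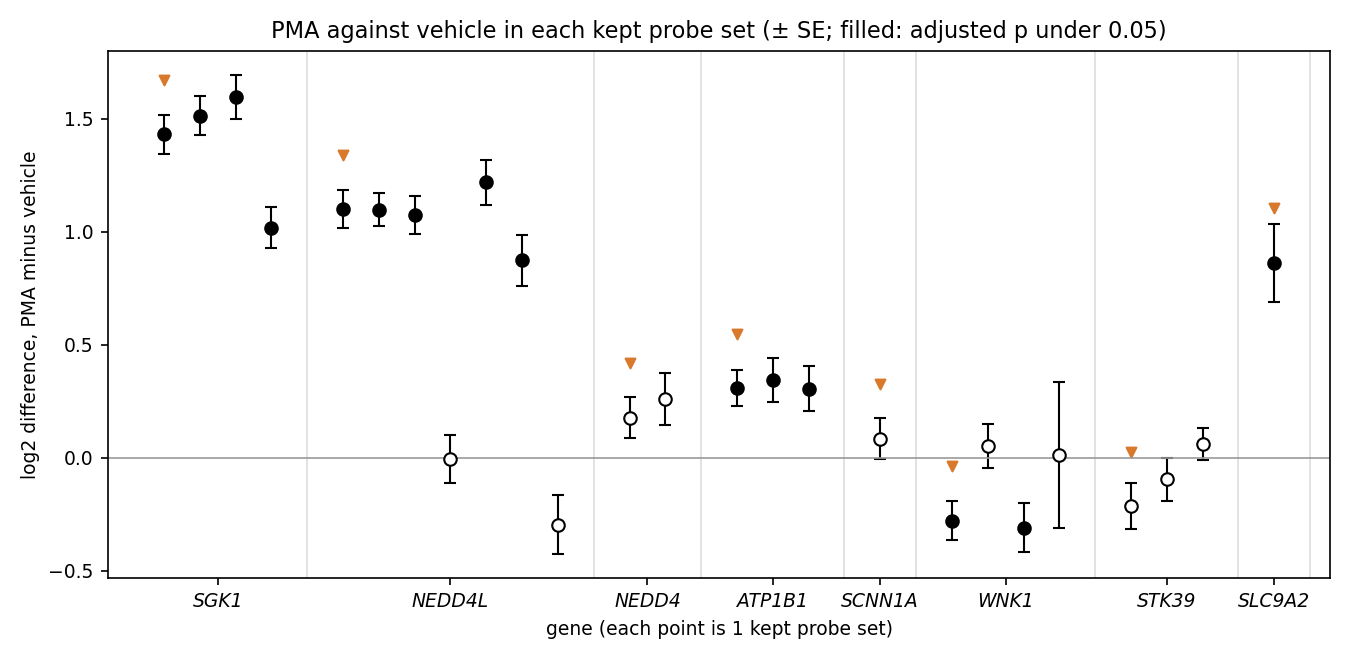
Log2 difference of PMA minus vehicle in each kept probe set of the 8 genes, ± SE; filled points have an adjusted p under 0.05 and triangles mark the probe set that stands for its gene. The 4 SGK1 points lie between 1.02 and 1.60, while NEDD4L has 5 points from 0.87 to 1.22 and 2 at −0.01 and −0.30.

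At the channel and the pump the differences were small. SCNN1A was dim in all 16 arrays, with group means of 4.45 ± 0.18 in vehicle, 4.46 ± 0.10 with DOC, 4.53 ± 0.06 with PMA and 4.38 ± 0.12 with both, and all 4 groups overlapped. Its differences were 0.08 ± 0.09 with PMA and 0.01 ± 0.09 with DOC, the latter with a 95% interval of −0.17 to 0.19. A change in a dim signal can be understated, so these bounds hold for the array signal. Its second probe set, dimmer and not kept, differed by 0.33 ± 0.09 with PMA and 0.23 ± 0.09 with DOC.

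ATP1B1 rose with PMA by 0.31 ± 0.07, or 1.24-fold (adjusted p = 0.00215). It ranged from 9.72 to 9.84 in vehicle and from 10.0 to 10.2 with PMA, so all 4 PMA arrays lay above all vehicle arrays. It was at 9.78 ± 0.14 with DOC and 10.08 ± 0.10 with both, and thus vehicle and DOC overlapped, as did PMA and both. All 3 of its probe sets rose with PMA, by 0.30 to 0.34. With both agents the gene was higher than in vehicle by 0.30 ± 0.07 (adjusted p = 0.00289), though 1 of the 3 probe sets was at 0.0963 there (adjusted p = 0.473). DOC differed from vehicle by −0.00 (95% interval −0.16 to 0.15) and DOC plus PMA from PMA by −0.01 (−0.16 to 0.15). In probe set 11726271_a_at these differences were −0.26 ± 0.10 and −0.21 ± 0.10, outside the intervals, though neither passed. In 11746991_a_at they were −0.11 and 0.01.

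In the kinase branch WNK1 fell with PMA and STK39 did not pass. WNK1 was at 9.06 ± 0.08 in vehicle and 9.06 ± 0.16 with DOC, and at 8.78 ± 0.07 with PMA and 8.77 ± 0.10 with both. It fell by 0.28 with PMA (SE 0.08, adjusted p = 0.00815), and all 4 PMA arrays lay below all 4 vehicle arrays. Of its 4 kept probe sets 2 fell, by 0.28 and 0.31, and 2 were at 0.05 and 0.01. With the mean of its kept probe sets the difference was −0.13 (adjusted p = 0.366), so the call rests on the choice of probe set.

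STK39, the kinase that WNK1 activates, was at 8.74 ± 0.13 in vehicle, 8.85 ± 0.07 with DOC, 8.53 ± 0.18 with PMA and 8.61 ± 0.16 with both. Its difference with PMA was −0.21 ± 0.10 (adjusted p = 0.0747). It passed with array weights (−0.26, adjusted p = 0.00622) or without vehicle replicate 2 (−0.26, 0.0456) or PMA replicate 2 (−0.30, 0.00851). Without the 3 arrays that deviated together it also passed (−0.30, 0.00474). Its other kept probe sets did not pass with PMA. They were at −0.10 (11717956_s_at, adjusted p = 0.441) and 0.06 (11717955_a_at, 0.500), and were dim in 11 and 13 of 16 arrays. DOC plus PMA was below DOC by −0.25 ± 0.10 (adjusted p = 0.0446), where 42.6% of all genes were called, and 15 of 27 alternatives ended that call and 1, another probe set, turned its direction (0.06).

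SLC9A2, the sodium-proton exchanger NHE2, had its highest signals with both agents. Its probe set 11737158_at read 3.07, 2.91, 2.93 and 3.36 in vehicle and 3.75, 3.51, 3.49 and 3.34 with DOC. With PMA it read 3.83, 4.44, 3.82 and 3.64, and with both 4.80, 5.18, 4.33 and 4.98. Of the DOC arrays 3 of 4 lay above every vehicle array, and of the arrays with both 3 of 4 lay above every PMA array. The group means were 3.07, 3.52, 3.93 and 4.82, the same order as for SGK1, but here each group overlapped with the next.

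SLC9A2 reached the filter's 40th percentile in 0 vehicle, 0 DOC, 1 PMA and 4 DOC plus PMA arrays, so it was among the tested genes only because it was high in the combination. Its p-values are therefore given also over all 18132 genes with no filter. Its signal was dim in vehicle, so no fold is given. PMA exceeded vehicle by 0.86 ± 0.17 (adjusted p = 4.99e-04, and 5.55e-04 with no filter), and both agents exceeded it by 1.75 ± 0.17 (2.24e-07, and 1.72e-07 with no filter). DOC alone differed from vehicle by 0.45 ± 0.17 (95% interval 0.09 to 0.82, adjusted p = 0.999), which did not pass. DOC plus PMA exceeded PMA by 0.89 ± 0.17 (adjusted p = 0.0247, and 0.0267 with no filter). Averaged over both levels of PMA, DOC raised it by 0.67 ± 0.12 (adjusted p = 0.0118, and 0.0131 with no filter), where 0.432% of all genes were called. The interaction was 0.44 ± 0.24 (95% interval −0.07 to 0.95), so a larger effect of DOC in the presence of PMA was not shown. The call against PMA was lost in the fit to those 2 groups alone (adjusted p = 0.152). It was also lost without PMA replicate 1, 3 or 4 (0.0926, 0.0906 and 0.105) or DOC plus PMA replicate 1, 2 or 4 (0.0710, 0.113 and 0.114). A second probe set, dim in all 16 arrays and not kept, differed by 0.16 ± 0.10 with PMA and by −0.11 for DOC plus PMA against PMA.

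NR3C2, the gene of the transfected receptor, read 7.43 ± 0.13 in vehicle, 7.38 ± 0.04 with DOC, 7.21 ± 0.23 with PMA and 7.02 ± 0.18 with both. It was lower with both than in vehicle by −0.41 (adjusted p = 0.00413), and its difference with PMA was −0.22 (adjusted p = 0.0967). With the replicate block that PMA value had an adjusted p of 0.0395, and it also passed with array weights (0.00968), without vehicle replicate 1 (0.0456) or PMA replicate 2 (0.0115), or without the 3 arrays that deviated together (0.00390). A second probe set, dim and not kept, was at 3.23 in vehicle, 3.34 with DOC, 3.33 with PMA and 2.99 with both. Whether either probe set reads the plasmid's transcript is not given in the sources used here. The part of the NR3C2 differences in the responses to DOC was not tested.

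Other genes of the pathway were taken from 7 lists that exclude the members. Their counts with PMA stand beside 17.7% higher and 29.3% lower over all genes, 47.0% in either direction, and beside a median of −0.04. In the list of SGK1 relatives, upstream kinases and substrates, 3 of 14 tested genes rose with PMA and 6 fell, with a median of −0.15. NDRG1, a substrate of SGK1, rose by 1.75 ± 0.10 (adjusted p = 2.86e-10), which is its RNA and not a measure of SGK1 activity. The ubiquitin ligase STUB1 fell by 0.65 and the transcription factor FOXO3, which SGK1 phosphorylates, fell by 0.45. NDRG1 differed by −0.08 ± 0.10 with DOC.

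In the NEDD4 family, 4 of 10 rose with PMA and 1 fell (median 0.10). The ligase SMURF2 rose by 1.09 ± 0.12, the NEDD4-binding adaptor NDFIP2 by 0.71 ± 0.10 and the ligase ITCH by 0.53 ± 0.12, the last not with the mean of its probe sets (0.26, adjusted p = 0.149). Of 4 tested genes for ENaC subunits and their regulators 1 rose, FURIN, a protease that cleaves ENaC subunits, by 0.45 ± 0.10 (median 0.12). Of 7 other sodium pump genes 0 were called by limma, and 0 had an unadjusted p under 0.05 (median 0.10). For PMA, unadjusted limma p-values of 0.0380 and 0.0549 ranked 6356th and 6759th of 12495 genes, so that cut falls between these ranks.

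Among 10 genes of the WNK and SPAK pathway, 2 rose and 2 fell with PMA (median 0.11). The kinase OXSR1, the close relative of STK39, fell by 0.42 and WNK3 fell by 0.59, while KLHL2, an adaptor that targets WNK kinases for degradation, rose by 0.38 ± 0.10. The WNK3 call was lost without vehicle replicate 4 (adjusted p = 0.0645), PMA replicate 1 (0.0636) or PMA replicate 3 (0.0622). Of 5 genes for sodium-proton exchange 2 rose (median 0.15), the exchanger SLC9A5 by 0.28 ± 0.09 and the scaffold EZR by 0.25 ± 0.09. The SLC9A5 call was lost with array weights (adjusted p = 0.0522) or without PMA replicate 2 (0.0568). The EZR call was lost when vehicle replicate 1 (0.0519) or 3 (0.0610) or PMA replicate 1 (0.0561) or 2 (0.0981) was left out.

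With DOC, 0 of the 50 genes tested in the 6 lists above were called by limma, where 0.12% of all genes were. Of the 50, 4 had an unadjusted limma p under 0.05, a looser cut to which the 0.12% does not apply. For DOC an unadjusted p of 0.0489 ranked 378th of 12495 genes and one of 0.0508 ranked 400th, so that cut falls between these ranks. In the last list, of corticosteroid receptors, the enzymes that convert their ligands and known targets, 2 of 7 rose with DOC, beside the same 0.12% (median 0.25 beside 0.01 over all genes). TSC22D3, the leucine zipper protein GILZ, rose by 0.63 ± 0.09 (adjusted p = 0.00251), though not with the mean of its probe sets (0.65, adjusted p = 0.0608). The co-chaperone FKBP5 rose by 0.58 ± 0.08 (adjusted p = 0.00121). Both also rose in DOC plus PMA against PMA, by 1.10 and 0.51. The clock gene PER1 was called for the effect of DOC averaged over PMA, 0.54 ± 0.10 (adjusted p = 0.0140), and not without the 3 arrays that deviated together (0.0966).

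With PMA this last list split. TSC22D3 fell by 1.18, FKBP5 rose by 0.35 ± 0.08 and EDN1, the endothelin-1 gene, rose by 1.29 ± 0.14. SGK1 thus rose with each agent, as FKBP5 did, whereas TSC22D3 rose with DOC and fell with PMA.

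The genes closest to SGK1 over the 16 arrays were found by Pearson correlation, as a description, since the arrays share their treatments. They were the small GTPase RASD1 (0.94), the transcription factor SNAI2 (0.94), the elongation factor ELL2 (0.94), the NF-kB inhibitor NFKBIA (0.94) and the Rab GTPase-activating protein TBC1D10A (0.93). RASD1 was dim in vehicle, DOC and PMA, with means of 3.53, 4.06 and 4.49, and stood at 5.06 with both. The part of the filter on dim probe sets in its calls was not tested. SLC9A2, at 0.92, came 9th. Of the other members NEDD4L was at 0.76, ATP1B1 at 0.74, NEDD4 at 0.56, SCNN1A at −0.16, STK39 at −0.41 and WNK1 at −0.71. The 5 closest genes all rose with PMA, by 0.45 for TBC1D10A to 1.88 for ELL2, where 17.7% of all genes were called higher. Their choice by likeness to SGK1, which rose with both agents, favoured such rises, so these are not support. With DOC alone NFKBIA was called, at 0.71 (adjusted p = 0.0139), while RASD1 was at 0.53 (adjusted p = 0.207), ELL2 at 0.35 (0.0969), SNAI2 at 0.28 (0.774) and TBC1D10A at 0.17 (0.999). The NFKBIA call was lost when vehicle replicate 3 (adjusted p = 0.0879), vehicle replicate 4 (0.0691), DOC replicate 1 (0.0629), DOC replicate 4 (0.0737) or the 3 arrays that deviated together (0.116) were left out. Averaged over both levels of PMA, DOC raised all 5, by 0.29 for TBC1D10A to 0.55 for ELL2. Each was called, where 0.432% of all genes were. The averaged calls of SNAI2 and TBC1D10A were each lost in 11 of 24 alternatives, and that of NFKBIA in 1. DOC plus PMA exceeded PMA by 0.76 for ELL2 and 0.41 for TBC1D10A, both called, where 0.384% were. This TBC1D10A call was lost in 11 of 26 alternatives. RASD1 (adjusted p = 0.0507), SNAI2 (0.210) and NFKBIA (0.779) were not called there.

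**Figure D4:**
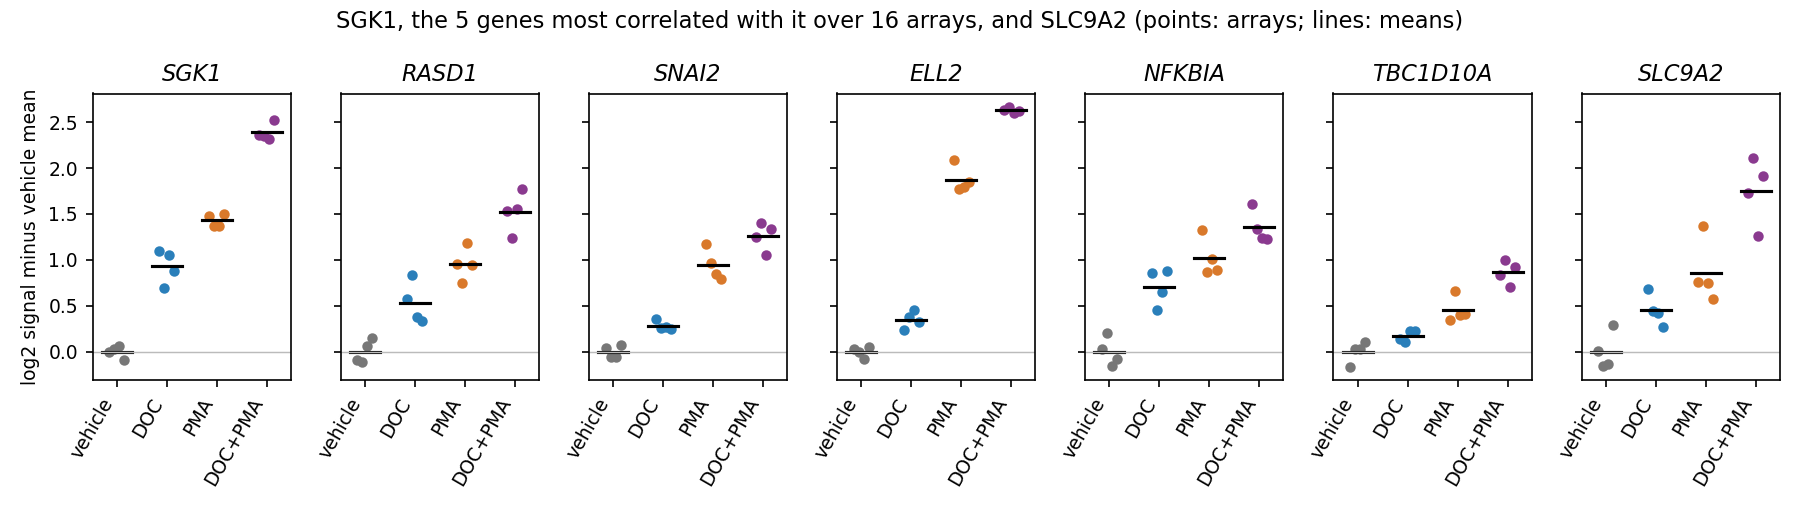
Log2 signal minus the gene's vehicle mean for SGK1, the 5 genes most correlated with it over 16 arrays, and SLC9A2, by treatment group; points are arrays and lines are group means. The lines stand at 0.93 with DOC, 1.43 with PMA and 2.39 with both for SGK1, and at 0.35, 1.88 and 2.63 for ELL2.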

How the data were processed

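The authors deposited log2 RMA signals for 49293 probe sets on 16 arrays, and the submitters' processing notes name RMA and Affymetrix Expression Console without a version. The sources used here give no genome build. RMA gives all arrays a common distribution and so hides any shift shared by all transcripts. Labelling started from 100 ng of total RNA, per the labels' protocols. All 16 columns matched a sample and 0 were unused.

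The platform annotation gave 44988 probe sets 1 gene, 1832 several and 2473 none, and 44961 of the first matched RefSeq by gene identifier. Probe sets that reached the 40th percentile on at least 4 arrays were kept (30613), and the one with the highest mean stood for its gene. Group means were fitted with lmFit and eBayes in limma 3.58.1 (R 4.3.3), two-sided, with no fold minimum, over 7 contrasts. The number of arrays limits the precision, and group differences had a median SE of 0.0879. The fit was tested on simulated data with 12495 genes, 200 of them changed. For DOC against vehicle it recovered 43.3%, 74.6% and 100% of changes of 0.3, 0.5 and 1 on the log2 scale. For the interaction it recovered 11.9%, 49.3% and 93.9%. The rates hold for that number of changed genes, and with fewer they can be lower. In the data 15 genes were called for DOC and 11 for the interaction.

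Replicate numbers have no stated meaning across groups. Deviations of PMA and DOC plus PMA arrays correlated in all 4 same-number pairs (0.157 to 0.549), so the numbers were taken to pair these 2 groups, from the data alone. The highest value joined 2 of the 3 arrays that deviated together. PMA replicates 1, 2 and 3 were closest to their own number, and replicate 4 to DOC plus PMA replicate 3. No other pair of groups had all 4 correlations above 0.1. Alternatives were cyclic loess and common median scaling, no or a 60th percentile filter, the mean of kept probe sets, array weights, a replicate block, only the 2 groups compared, leaving out each array, and each kept probe set. An added one, chosen after seeing the data, left out 3 arrays.

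The genes named are the members and NR3C2, up to 3 called genes per list with the largest change for PMA, every list gene called for DOC or its main effect, and the 5 genes most correlated with SGK1. The members and lists were chosen with earlier results of these data known. Promoter windows were taken from RefSeq (GRCh38.p14) by symbol, which gave 15 windows for 7 members.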

Additional observations from a re-analysis of the deposited data

Results flagged for a closer look

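In 2 of the 32 groups of 4 arrays examined for the members, 1 array stood apart from the other 3 by Dixon's test, which chance gives for about 1 group in 20. NEDD4L read 8.08 in vehicle replicate 2, where the other vehicle arrays read 8.31 to 8.34. ATP1B1 read 9.98 in DOC replicate 1, where the other DOC arrays read 9.69 to 9.74, and this array is among the 3 that deviated together.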

How the results depend on the processing

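SGK1 kept its direction and its call in all comparisons but the interaction under every alternative run. Without 1 array at a time it stayed between 1.40 and 1.45 for PMA and between 0.87 and 1.01 for DOC against vehicle. Its interaction ran from −0.0502 to 0.0836 without 1 array at a time and was −0.13 in probe set 11715931_s_at, and it was called nowhere. With array weights the number of genes called was 89 for DOC plus PMA against PMA, 25 for the interaction and 94 for the average effect of DOC, in place of 48, 11 and 54; without 1 array at a time these counts ran from 31 to 53, from 5 to 14 and from 44 to 68. With the replicate block over 16 arrays 56 genes were called for DOC plus PMA against PMA, and 61 with the block over the 8 arrays of these 2 groups, where SGK1 had an adjusted p of 0.000121; the block changed no call of a member. In single probe sets, NEDD4L turned sign for PMA, both agents and both against DOC in 11722423_a_at (−0.00515, −0.10 and −0.0254) and 11722425_s_at (−0.30, −0.27 and −0.25), WNK1 for PMA in 2 (0.0528 and 0.0128) and STK39 for both against DOC in 1 (0.0568), and the cause was not tested. STK39, not called for PMA, also turned sign for PMA in 11717955_a_at (0.0586). Dim signals limit what can be said of SCNN1A, SLC9A2 and RASD1.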
